A study of Mus musculus with 12 samples.

Results

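Nucleosome calls were examined at 4 neighbouring genes on mouse chromosome 6, Fbxo41, Egr4, Alms1 and Nat8f7, of 49939 genes in the RefSeq table used. A call counted as a member when its midpoint lay in 1 of these genes or within 1000 bp of its ends, which 26 of the 415758 calls of the series did. The genes were chosen for their calls by stage and MNase amount, so the values that follow are a description, with no test. The cells came from testes of SV129 males aged 8 to 12 weeks, separated by STAPUT velocity sedimentation, with 11 mice pooled for each collection and fractions kept where purity reached 85%. The samples of M came from a fraction titled meiotic spermatid but described as meiotic in the protocol, and those of RS from round spermatids. Each was digested with 0.5, 1 or 2 U of micrococcal nuclease (MNase) for 7.5 min at 37 °C, RS with 2 times as many cells. The 12 samples form 6 groups of 2, and the authors deposited 1 list of calls per group, made from both of its samples. Calls hold no expression values, so the purity of the fractions could not be checked with marker genes.

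MNase cuts the DNA that links nucleosomes and spares the DNA wrapped around histones, so a pile of surviving fragments marks a nucleosome. Round spermatids are the haploid cells that later exchange histones for protamines, and meiotic germ cells come before them. Alms1 encodes a large protein of the centrosome and of the basal body from which cilia and the sperm flagellum grow; its loss causes Alström syndrome in humans. Egr4 encodes a zinc finger transcription factor of the early growth response family, and male mice without it are infertile. Fbxo41 encodes an F-box protein, the substrate-binding part of a ubiquitin ligase, known mostly from neurons. Nat8f7 belongs to a cluster of N-acetyltransferase genes related to Nat8.

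On GRCm38/mm10, Fbxo41 lies at chr6:85469574-85502994 and Egr4 at chr6:85511121-85513589, both on the minus strand. Alms1 follows on the plus strand at chr6:85587498-85726611, and Nat8f7, at chr6:85706707-85708885 on the minus strand, lies within its span. Exons were not in the table used, so calls are placed by distance along a gene and not as exonic or intronic. The sequences just upstream of 3 of the start sites are shown because they are the regulatory DNA of the genes. No call of any list overlapped them, as at 94.5% of the RefSeq promoters cut to the same length. They are from RefSeq (GRCm38.p6), 5′ to 3′ on the strand of the gene, and stop at the annotated gene. Capitals mark matches on either strand to TATATAA, a form of the core promoter box that binds the general transcription machinery. They also mark matches on either strand to CGTCA, the half-site of the cAMP response element.
Fbxo41, chr6:85502995-85503244, minus strand: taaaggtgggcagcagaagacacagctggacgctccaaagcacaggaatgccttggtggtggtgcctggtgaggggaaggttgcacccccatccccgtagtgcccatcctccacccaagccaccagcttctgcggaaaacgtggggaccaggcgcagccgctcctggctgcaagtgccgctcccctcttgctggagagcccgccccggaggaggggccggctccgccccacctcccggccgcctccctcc
Egr4, chr6:85513590-85513839, minus strand: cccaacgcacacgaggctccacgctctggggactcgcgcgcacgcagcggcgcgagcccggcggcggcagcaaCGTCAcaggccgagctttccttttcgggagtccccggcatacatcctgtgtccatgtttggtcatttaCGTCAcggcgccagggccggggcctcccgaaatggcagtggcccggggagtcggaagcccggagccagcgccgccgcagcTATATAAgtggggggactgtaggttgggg
Alms1, chr6:85587281-85587497, plus strand: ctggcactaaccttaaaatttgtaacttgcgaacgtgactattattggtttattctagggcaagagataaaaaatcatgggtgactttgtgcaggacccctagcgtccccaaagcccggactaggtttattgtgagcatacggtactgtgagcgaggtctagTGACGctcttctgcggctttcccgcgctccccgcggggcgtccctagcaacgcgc
Over 250 bases before each start site, the Egr4 promoter had 28 CpG dinucleotides and a G+C share of 68%, with 1 TATATAA and 2 CGTCA. Fbxo41 had the same G+C share with 13 CpG and neither motif. Alms1 had 19 CpG, 54.8% G+C and 1 CGTCA, and Nat8f7 had 1 CpG, 46.8% G+C and neither motif. Of 32851 RefSeq promoters cut to the same length, 3.04% held TATATAA and 17.8% held CGTCA, and the medians were 6 CpG and 52.4% G+C. The nearest call midpoint lay 1.21 kb from the Alms1 promoter, 1.57 kb from that of Nat8f7, 3.50 kb from that of Egr4 and 9.55 kb from that of Fbxo41, each in an RS list.

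The 4 genes with their margins covered 181 kb after overlaps were joined. For M, the list at 0.5 U had 0 calls there, that at 1 U had 1 and that at 2 U had 2. For RS, the list at 0.5 U had 17, that at 1 U had 6 and that at 2 U had 0. The calls of RS thus lay at the lower 2 amounts, and the few of M at the upper 2. The lists differ in size, from 42178 to 65614 calls for M and from 27101 (2 U) to 179133 (0.5 U) for RS. Scaled to 100000 calls of the list, the genes held 1.66 calls in M at 1 U (95% Poisson interval 0.0421 to 9.27) and 3.05 at 2 U (0.369 to 11.0). They held 9.49 in RS at 0.5 U (5.53 to 15.2) and 14.4 at 1 U (5.29 to 31.4). For the lists without a call the 95% Poisson intervals reached 8.75 per 100000 in M at 0.5 U and 13.6 in RS at 2 U. A limit of 3 calls, used below, stands at 7.11 and 11.1 per 100000 in these lists. The intervals cover counting error only, and they are too narrow because neighbouring calls overlap. Of the 4 members, Alms1 and Nat8f7 had more calls per 100000 in RS (mean of 3 amounts), against 38.4% of all protein-coding genes. Nat8f7 rests on 1 call that it shares with Alms1, and with margins of 5000 bp it had 2 calls in M at 2 U (3.05 per 100000) against the 1 in RS at 0.5 U (0.558), which turns its direction. Fbxo41 had more in M, against 25.5%, but its 3 calls give the opposite direction when the lists of a stage are summed, 0.807 per 100000 in RS and 0.596 in M. Egr4 had no call in any list, against 36.1%.

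**Figure D1:**
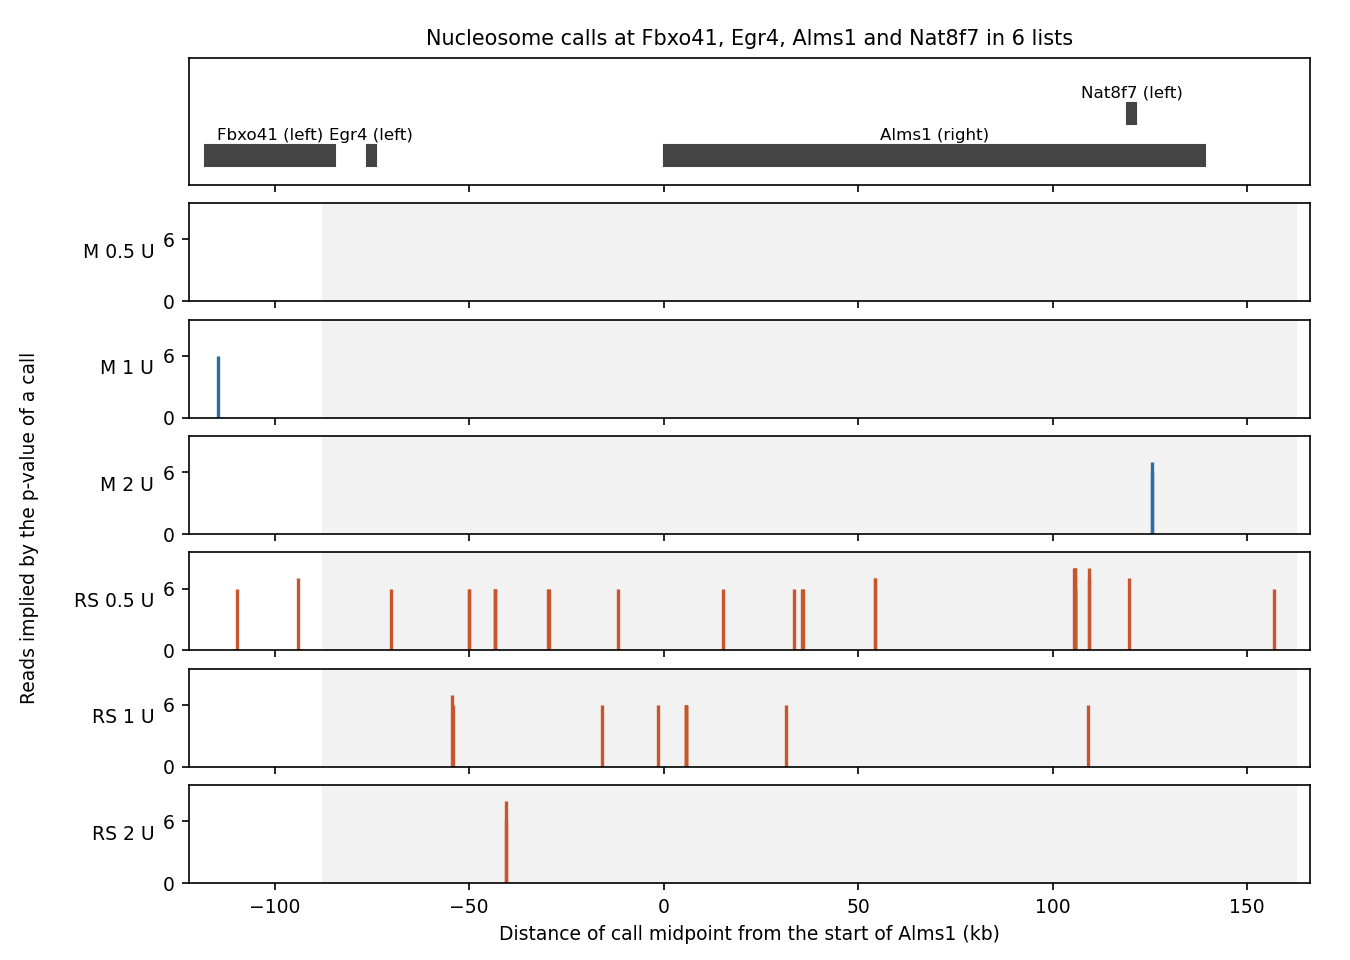
Calls along the 4 genes in each list: the x axis is the distance of a call midpoint from the start of Alms1 in kb, the height of a line is the number of reads that its p-value implies, and grey marks the 250 kb window from 85.50 to 85.75 Mb. Genes are drawn to scale with their direction, and overlapping calls merge into 1 line; RS at 0.5 U has lines along most of the map, and M has 1 line at each of 1 U and 2 U.

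Alms1 held 23 of the 26 member calls. From 0.5 to 2 U, the M lists gave it 0, 0 and 2 calls and the RS lists 15, 6 and 0. The lists of RS at 0.5 U and 1 U were thus above every other list, which did not go past 2. Many of these calls overlap. With midpoints within 73 bp of each other in 1 list taken as 1 position, the 15 calls were 8 positions, the 6 calls were 3 and the 2 calls of M were 1. The deposited p-values match the upper tails of Poisson distributions that start at 6 reads in every list, which gives each call an implied read number. In RS at 0.5 U, 9 of the 15 calls implied more than 6 reads, and the highest implied 8. In RS at 1 U all 6 calls stood at the minimum of 6, so 1 read fewer at each would have left none.

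The positions in Alms1 fell into an upstream set and a downstream set. In RS at 1 U the first was a group of 4 overlapping calls centred 5.73 kb past the gene start (chr6:85593127-85593326). The RS lists then had positions at 15.3, 31.4, 33.4, 35.6, 35.8 and 54.2 kb. The next midpoint of any list followed after 51330 bp. It opened the largest group of the locus, 6 overlapping calls of RS at 0.5 U centred at 106 kb (chr6:85693017-85693291), with up to 8 implied reads. Beside it, RS had positions of both lower amounts about 109 kb past the start, 165 bp apart: 1 call at 1 U and 2 calls at 0.5 U. They were the closest that 2 lists came to each other, and within the list of RS at 0.5 U the shortest step between separate positions was 200 bp. The calls of M at 2 U lay farther downstream, at 126 kb (chr6:85712992-85713156), with up to 7 implied reads. The end of Alms1 overlaps the annotated pseudogene Alms1-ps1. How the authors treated reads that match several places is not stated in the labels, so calls in such copies are uncertain.

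The other members held few calls. Fbxo41 had 1 call in M at 1 U, 30.2 kb from its 5′ end, and 2 calls in RS at 0.5 U, at 25.2 kb and 9.55 kb, with 6, 6 and 7 implied reads. Of 3232 protein-coding genes of 25 to 45 kb, 53.2% had 3 or more calls over the 6 lists, so a count of 3 is common for its length. Nat8f7 had 1 call, in RS at 0.5 U, with 7 implied reads (chr6:85706924-85707063). This call lies within both Nat8f7 and Alms1 and cannot be given to either of them. Egr4, which is 2469 bp long, had 0 calls in each of the 6 lists, and 72.4% of the 816 protein-coding genes of 2 to 3 kb also had none. No call lay within the 1000 bp margins of any member. The nearest calls outside a margin were 1 of RS at 1 U, 427 bp beyond that of Alms1, and 1 of RS at 0.5 U, 2752 bp beyond that of Egr4, both with 6 implied reads.

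The stretch between the margins of Egr4 and Alms1, 71.9 kb with no gene of the table, was not part of the members. Each M list had 0 calls there, while the RS lists had 9, 4 and 2 from the lowest to the highest amount. It thus had calls at each amount of RS and at none of M. The calls of RS formed 5, 3 and 1 positions. The pair at 2 U (chr6:85546992-85547156) reached 8 implied reads and was the only signal of that list in the window. The 3 groups of 2 or more calls of RS at 0.5 U in this stretch all stood at the minimum of 6 reads.

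The window from 85.50 to 85.75 Mb, which holds Egr4, Alms1, Nat8f7 and the end of Fbxo41, received 0, 0 and 2 calls from the M lists, against 25, 10 and 2 from the RS lists. All 9606 autosomal windows of 250 kb were counted in the same way, without the first 3 Mb of each chromosome. Their means were 4.09, 5.92 and 6.49 for the M lists and 18.3, 4.08 and 2.59 for the RS lists. The window lay below the mean in each M list and in RS at 2 U, and above it in RS at 0.5 U and 1 U, by 1.37-fold and 2.45-fold. As many calls or more were found in 15.2% of windows for RS at 0.5 U and in 3.11% for RS at 1 U. Windows without a call made up 18.9% for M at 0.5 U and 7.42% for M at 1 U. With overlapping calls taken as 1 position, the window had 14 in RS at 0.5 U and 6 at 1 U, against means of 12.0 and 2.64, and 32.2% and 4.77% of windows had as many. More calls per 100000 in RS than in M were found in 64% of windows at 0.5 U, in 47% at 1 U and in 40.7% at 2 U, so the direction at 0.5 U is that of most windows.

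**Figure D2:**
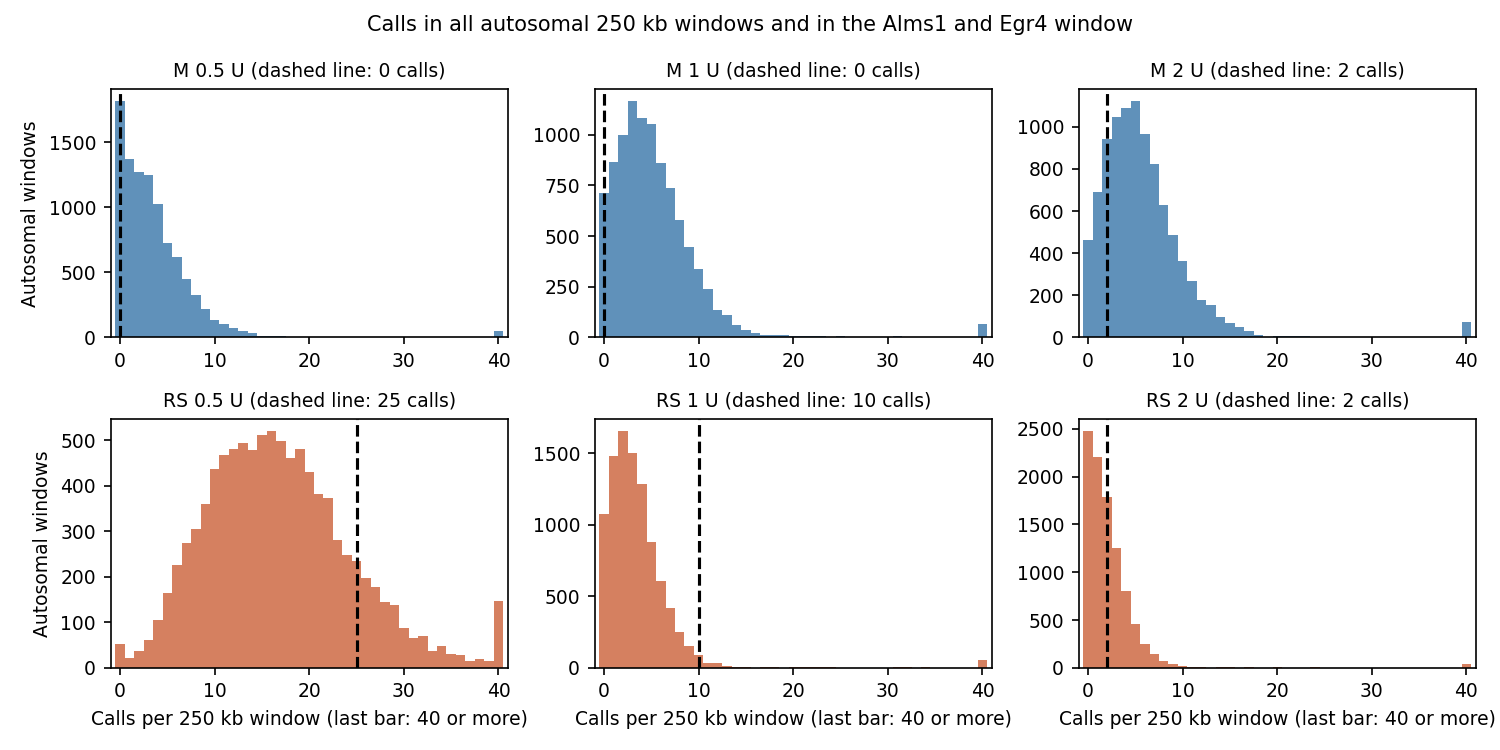
Number of autosomal 250 kb windows (y axis) by calls per window (x axis; the last bar holds 40 or more) in each list. The dashed line is the window of Alms1 and Egr4, with 0, 0 and 2 calls for M and 25, 10 and 2 for RS.

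The surroundings were compared next, since call numbers vary over long stretches of a chromosome. Outside the members, 1 Mb on each side of the window (1969 kb) received 8, 18 and 36 calls from the M lists and 106, 23 and 20 from the RS lists. Density in the members, over that of the surroundings, was 0, 0.604 and 0.604 in M, with exact 95% intervals of 0 to 6.37, 0.0145 to 3.83 and 0.0705 to 2.35. In RS it was 1.74 (0.98 to 2.93) at 0.5 U, 2.84 (0.945 to 7.17) at 1 U and 0 (0 to 2.20) at 2 U. These intervals include 1, but for Alms1 alone the ratio was 1.97 (1.07 to 3.41) in RS at 0.5 U and 3.64 (1.21 to 9.19) at 1 U. With 0.5 Mb of surroundings on each side, the members had 2.12 (1.13 to 3.79) and 4.59 (1.27 to 15.9) in the same lists, so whether these intervals include 1 depends on the margins and surroundings used. For the whole window the ratio was 1.86 (1.15 to 2.89) in RS at 0.5 U and 3.42 (1.45 to 7.48) at 1 U, and in M at 1 U it was 0 (0 to 1.79). All these ratios count overlapping calls singly, so their intervals are too narrow. With overlapping calls taken as 1 position, the members' ratio was 1.51 (0.695 to 2.94) in RS at 0.5 U and 2.18 (0.404 to 7.69) at 1 U. Counts and calls per 100 kb are not scaled to the size of a list. In the window and its surroundings no 10 kb bin held more than 20 calls in any list.

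**Figure D3:**
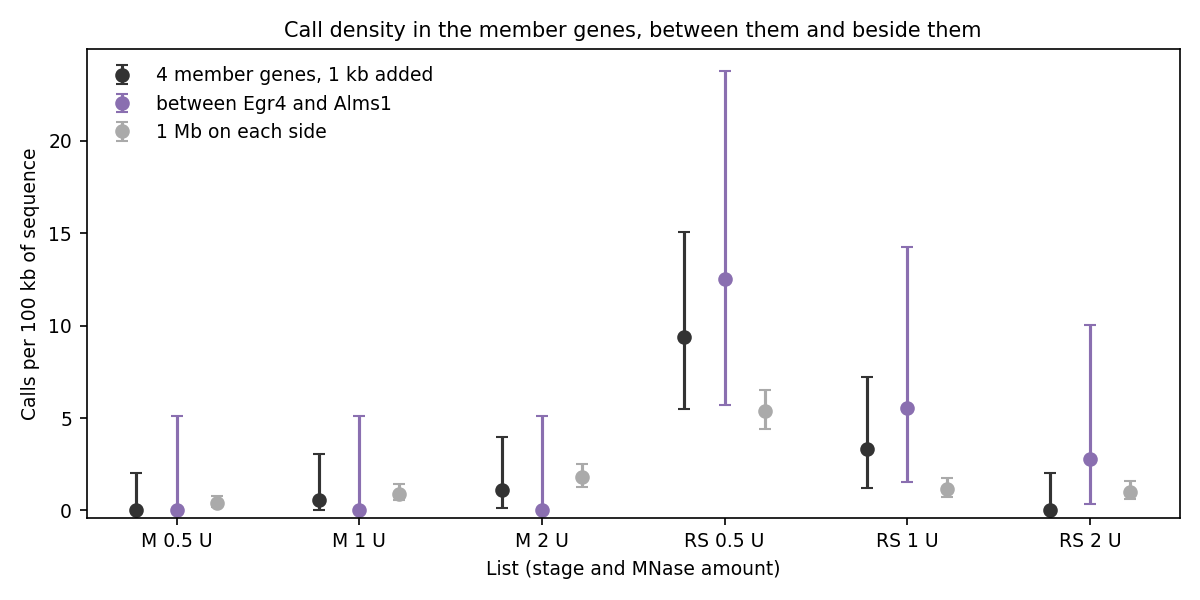
Calls per 100 kb of sequence (y axis) in each list (x axis), in the 4 genes with 1 kb margins, in the stretch between Egr4 and Alms1, and in 1 Mb on each side. Bars are exact Poisson 95% intervals of the counts; the surroundings have 106 calls in RS at 0.5 U and 8 in M at 0.5 U.

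**Figure D4:**
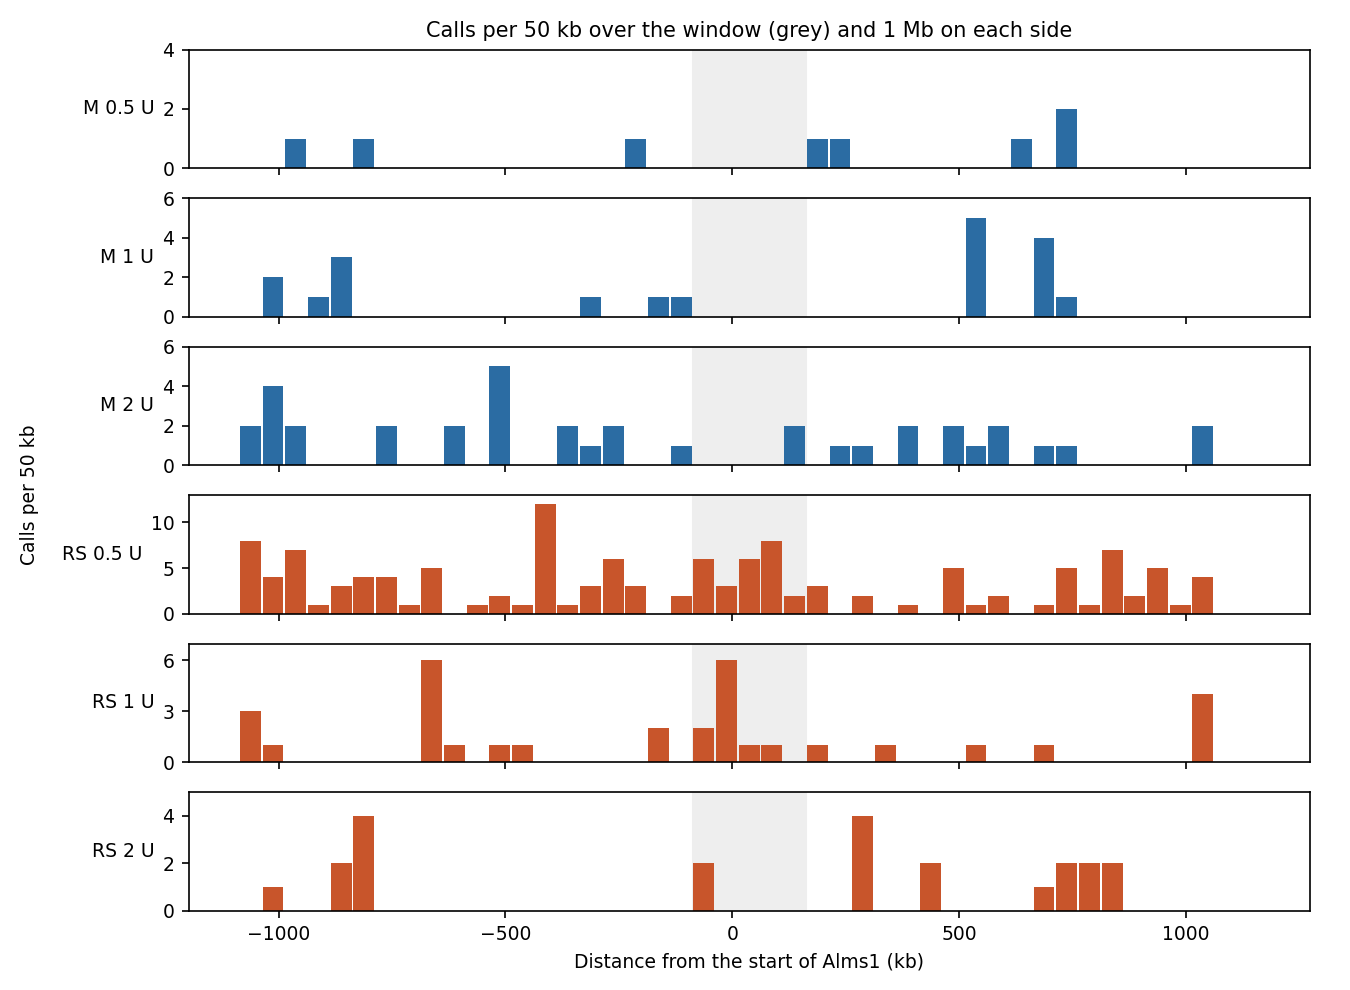
Calls per 50 kb (y axis; each list has its own scale) by distance from the start of Alms1 in kb (x axis), with the window in grey. The grey zone is empty in M at 0.5 U and 1 U, and single bins outside it reach as high as those inside, with 12 calls in the highest bin of RS at 0.5 U.

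Between the stages at the same amount of MNase, the members had 17 calls in RS and 0 in M at 0.5 U. With 3 calls put in place of the 0 of M, the rate per 100000 was 1.33-fold higher in RS. This leaves out the counting error of RS, and the exact 95% interval of the ratio started at 0.972. At 1 U, 6 calls in RS and 1 in M gave a ratio of 8.65 (1.05 to 398). At 2 U, 0 calls in RS and 2 in M gave no ratio, since both were at or under the limit of 3 calls. Averaged over the 3 amounts, the log2 ratio of RS over M, with 0.5 added to each count, was 1.55 (95% interval -0.62 to 3.71). This mean includes the amount of 2 U, where both counts were at or under that limit. Without the lists at 0.5 U it was 0.80 (-1.74 to 3.34), without those at 1 U 1.00, and without those at 2 U 2.84 (0.44 to 5.24). Summed over the lists of a stage, 23 calls in RS and 3 in M gave 9.28 and 1.79 per 100000. RS at 0.5 U, the largest list, gave 17 of these 23 calls. At equal MNase per cell, RS at 1 U had 6 calls and M at 0.5 U had 0, and RS at 2 U had 0 and M at 1 U had 1. Each list joins both samples of its group, so none of these differences could be set against replicate error, and a two-sided sign flip over 3 amounts cannot give a p below 0.25. The surroundings, 1 Mb on each side of the window, also had more calls per 100000 in RS. Their mean log2 ratio over the 3 amounts was 0.96 (0.44 to 1.48). It lies within the members' interval of -0.62 to 3.71, so the members were not set apart from their surroundings in this mean.

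For the whole window the difference between stages was larger in size than in the members. At 1 U, with 10 calls in RS and 0 in M, the rate was 4.81-fold higher in RS with 3 calls put in place of the 0. The exact interval of the ratio started lower, at 3.23. At 0.5 U, with 25 and 0 calls, the rate was 1.96-fold higher in the same way, and the interval started at 1.48. At 2 U both lists had 2 calls, under the limit of 3, and no ratio is given. The window and its edges were chosen on these calls, so their size is no measure of how unusual the window is. In the surroundings the rate was also higher in RS, 3.12-fold (1.53 to 7.41) at 0.5 U and 1.84-fold (0.952 to 3.62) at 1 U. These intervals overlap those of the window. Averaged over the 3 amounts, the log2 ratio of the window was 3.26 (1.17 to 5.35), above the 0.96 (0.44 to 1.48) of the surroundings. Both intervals of this mean overlap too, and it includes the lists at 2 U, which are under the limit in the window.

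None of the positions in the window or the members was called in more than 1 list. They numbered 25, of which 23 came from RS lists and 2 from M lists. Of all calls on the 21 chromosomes, between 9.69% in RS at 0.5 U and 27.0% in RS at 2 U had a midpoint of another list within 73 bp. Recurrence between MNase amounts therefore gave no second sighting of any single position here.

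Alms1 was then set beside the 1439 protein-coding genes of 100 to 200 kb, its own length class. Their medians were 0, 1 and 2 calls for the M lists and 7, 1 and 0 for the RS lists. Alms1 was at the median in M at 0.5 U and 2 U and in RS at 2 U, and 1 call below it in M at 1 U. With 15 calls in RS at 0.5 U and 6 in RS at 1 U it stood above the upper quartiles of 10 and 3. As many calls or more were found in 9.45% of these genes in RS at 0.5 U and in 5.07% in RS at 1 U. More calls per 100000 in RS (mean of 3 amounts) were found in 56.8% of them. The order seen at Alms1, higher in RS at 0.5 U and 1 U and higher in M at 2 U, was found in 15.1%. At 2 U this order rests on 0 calls in RS and 2 in M, too few to give a direction.

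**Figure D5:**
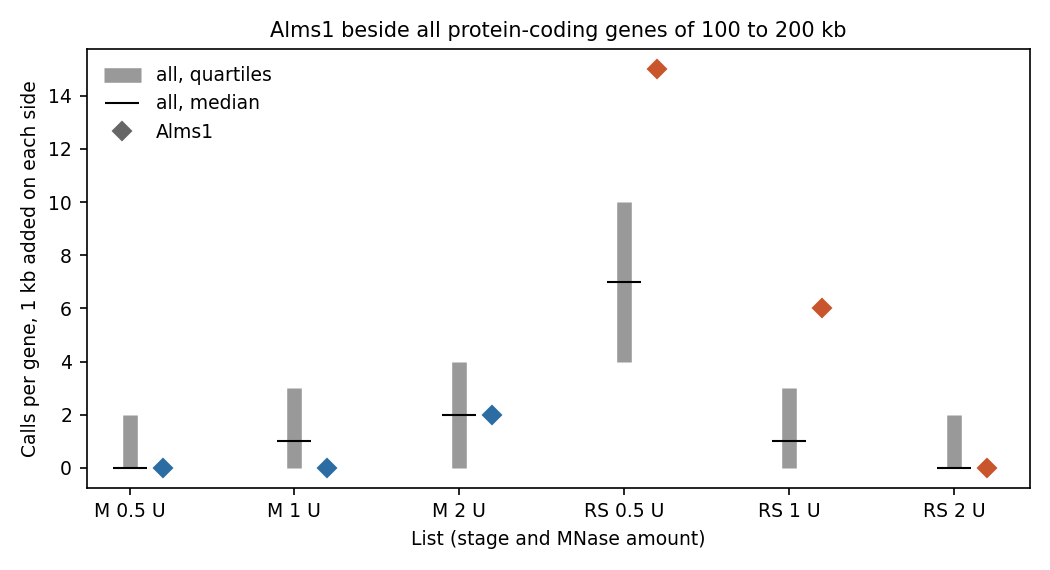
Calls per gene (y axis) in each list (x axis) for Alms1 (diamonds) and for all 1439 protein-coding genes of 100 to 200 kb (line: median; bar: quartiles). Alms1 lies above the upper quartile in RS at 0.5 U and 1 U, with 15 and 6 calls, and within the quartiles in the other 4 lists.

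The genes with the most similar profile were taken from the 1466 protein-coding genes elsewhere with at least 20 calls, by Pearson r of calls per 100000 over the 6 lists with the sum of the members. Tmtc1, an enzyme gene of protein O-mannosylation on the same chromosome, had r = 0.996, from 0, 1 and 1 M calls and 14, 5 and 0 RS calls. Neto1, for a partner of glutamate receptors, had r = 0.995, from 0, 1 and 1 M calls and 17, 6 and 0 RS calls. Vps8, for endosomal tethering, had r = 0.981, Mup5, a major urinary protein gene with many close copies, r = 0.982, and Ltbp1, which binds latent TGF-beta, r = 0.972. All 5 share with the members a highest rate in RS at 1 U, and Tmtc1, Neto1, Vps8 and Mup5 also have 0 calls in RS at 2 U. The choice by r favours such shared traits, so they are no separate finding. Each r rests on 6 values from few calls and is a description only.

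Relatives of the members were counted in lists of genes. Of the 4 Egr genes, Egr1 and Egr3 had 1 call each in RS at 0.5 U, Egr2 had 3 calls in M at 2 U and none elsewhere, and Egr4 had none. In the Nat8 family of 9 genes, which all lie on chromosome 6 next to Alms1, 2 had more calls per 100000 in RS, 3 in M and 4 had none, with 3 M calls and 2 RS calls in all. Among 9 F-box genes 3 had more in RS and 4 in M. The shares of all protein-coding genes were 38.4% with more in RS, 25.5% with more in M and 36.1% without a call. Among 16 genes of the basal body and of ciliopathies, Alms1 included, 12 had more calls per 100000 in RS, 1 had more in M (Ttc8, of the BBSome, with 4 M calls and 2 RS calls) and 3 had none. They received 14 M calls and 78 RS calls, of which 60 were in RS at 0.5 U. Bbs9, also of the BBSome, had 5 M calls and 18 RS calls, 15 of the latter in RS at 0.5 U. Without the lists at 0.5 U it had 5 and 3, or a mean of 3.95 per 100000 in M and 3.60 in RS. Cep290, of the ciliary transition zone, had 2 M calls and 14 RS calls, and 2 of each without those lists. Without the lists at 0.5 U, 7 of the 16 genes had more in RS, 1 in M and 8 none, against 22.1% of all protein-coding genes with more in RS and 25.7% with more in M.

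Other genes at the window's edges had few calls. Cct7, of the TRiC chaperonin, on the side of Fbxo41, had 1 call, in M at 2 U. Alms1-ps1, which overlaps the end of the window, had 1 call, in RS at 0.5 U and within the window, and Nat8f3 had 1 call, in M at 0.5 U. For other testis cells, 9 Sertoli and Leydig cell genes received 6 M calls and 24 RS calls, 13 of the latter at Gata4. Of these genes 4 had more calls per 100000 in RS and 2 in M, Wt1 and Cyp17a1, while Sox9, Amh and Star had 0 in every list. The shares of all protein-coding genes were 38.4%, 25.5% and 36.1%. A set of 6 meiotic genes held 2 and 17, and 6 spermatid genes 1 and 17, all at Zpbp. Without the lists at 0.5 U the Sertoli and Leydig cell genes had 4 M calls and 10 RS calls, the meiotic genes 2 and 1, and the spermatid genes 0 and 5. The RS lists hold more calls in all only with the list at 0.5 U, which has 179133. At 1 U and 2 U they hold fewer, 41655 and 27101 against 60077 and 65614 for M. The part of cell composition in the values at Alms1 was not tested.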

How the data were processed

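Each of the 6 deposited lists is a table of nucleosome calls of 140 bp with a p-value for each call, made by the authors from both samples of a group, per the design text of the series. STAR 2.5.2a and the builds GRCm38 and mm10 are named, per the submitters' processing notes. Neither the nucleosome caller nor its threshold is given in the sources used here, and the number of reads behind a list is unknown. From these p-values, the read number each implies was derived by matching the 8 largest of a list to Poisson tails (minimum 6 in every list, mean coverage 0.409 to 0.696), and the p-values were used in no other way. Between 65.4% and 69.5% of the calls of a list stood at that minimum, so 1 read decides many single calls.

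Calls were placed by midpoint (start + 70). Genes came from RefSeq (GRCm38.p6) on 21 chromosomes, and promoters from its promoter table, where all 4 members matched. Counts were scaled to 100000 calls of the list. Intervals are exact Poisson for counts, exact conditional binomial for ratios and normal for log2 ratios. No test between stages was made, as each group has 1 list. The members and gene lists were chosen with earlier results of these data known. Named were the members, genes starting in the window, the nearest protein-coding gene on each side, the 5 genes of most similar profile, and members of the gene lists; those singled out from the lists were chosen after their values were seen, as were the length classes. Steps were tested on simulated data. Python 3.11.15, numpy 2.4.6, pandas 2.3.3, scipy 1.17.1 and matplotlib 3.10.9 were used. The alternatives were calls above the minimum, margins of 0 and 5000 bp, any overlap, merged positions, totals without dense bins, other flanks, another added count and leaving out amounts.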

Additional observations from a re-analysis of the deposited data

How the results depend on the processing

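No paired analysis was possible because each list joins both samples of a group, so samples could not be left out either. With only calls above the minimum of 6 implied reads, the members held 0 calls per 100000 in M at 1 U, 18.3 in RS at 0.5 U and 0 in RS at 1 U, and their density over that of the surroundings was 0, 4.35 and 0 in the same lists. The falls to 0 follow from the construction: the 6 member calls of RS at 1 U and the 1 call of M at 1 U stand at the minimum. In RS at 0.5 U both values rose. There 10 of the 17 member calls were above the minimum, while 69.5% of the calls of that list stood at it and left the total. Most of these 10 calls overlap one another, several of them in the group at chr6:85693017-85693291. Intervals for this setting are thus too narrow, and it was not computed with merged positions. The values with only calls above the minimum in these 3 lists were 6 of the 84 alternative values for the members' calls per 100000 and density. The other 78 stayed within the interval of the reported value. Many of them could hardly move. In M at 0.5 U and RS at 2 U every alternative was 0, like the reported value. With no margin or with any overlap, the member counts were the same in each list. The number 78 is thus no measure of stability. For the density in RS, however, the interval, which includes 1 as reported, lay above 1 with surroundings of 0.5 Mb (from 1.13 at 0.5 U and 1.27 at 1 U) and of 2 Mb (from 1.06 and 1.11), with no margin at 0.5 U (from 1.01), with margins of 5000 bp at 1 U (from 1.07) and with only calls above the minimum at 0.5 U (from 1.86). With merged positions the density interval included 1 and started lower, from 0.695 at 0.5 U and 0.404 at 1 U. The log2 ratio of RS over M, as the mean of amounts, ran from 0.80 to 2.84 over its 11 alternatives, above 0 in each of them. Its interval excluded 0 only without the lists at 2 U. With margins of 5000 bp the direction of Nat8f7 turned, from 0 to 2 M calls, and Egr4 gained 1 call, in RS at 0.5 U; Egr4 had none under the other alternatives. The count of basal body and ciliopathy genes with more calls in RS fell from 12 to 7 without the lists at 0.5 U, an alternative added after the data were seen. Low call numbers limit every value. In the lists without a member call, Poisson intervals reached 8.75 per 100000 in M at 0.5 U and 13.6 in RS at 2 U. The limit of 3 calls stands at 7.11 and 11.1 per 100000 in these lists.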
